A study of Homo sapiens with 6 samples.

Results

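The genes described here encode Golgi mannosidases and the enzymes that act beside them in the processing of N-glycans, the sugar chains attached to asparagine residues of secreted and membrane proteins. The 10 members are MAN1A1, MAN1A2, MAN1B1, MAN1C1, MAN2A1, MAN2A2, MGAT1, MGAT2, ST6GAL1 and FUT8. They were found as all probe sets whose platform annotation gives exactly 1 gene symbol, equal to a member, which gave 26 of the 54613 probe sets tested and 10 of 19775 genes. The family was chosen by the difference of MAN1A1 between LPS and control cells, already known to be among the largest rises in these samples, and its other members by their function. The differences between LPS and control cells are therefore a description of the members. For MAN1A1 no p-value is given as evidence, because that same difference chose it.

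RNA was measured in BL-2 cells, an established line from a Burkitt lymphoma, a tumour of germinal centre B cells. There were 3 samples exposed for 6 h to lipopolysaccharide (LPS), the main lipid of the Gram-negative bacterial surface, and 3 control samples with no treatment, each on its own Affymetrix array. All 6 samples are of 1 cell line. Separate cultures are not stated, and the p-values therefore reflect the spread among these arrays, part of which may be technical. In a cell line as in a tissue, a bulk measurement cannot tell fewer cells with a transcript from less of it in each cell.

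N-glycans are attached in the endoplasmic reticulum as a mannose-rich precursor. Mannosidases of class I then remove mannose: MAN1B1 early in the secretory route, and MAN1A1, MAN1A2 and MAN1C1 in the Golgi. MGAT1 adds the first N-acetylglucosamine to the trimmed chain, MAN2A1 and MAN2A2 remove further mannose, and MGAT2 starts the second arm, which commits the chain to the complex type. FUT8 adds fucose to the core, and ST6GAL1 caps the arms with sialic acid in the linkage that CD22, an inhibitory receptor of B cells, binds. N-glycans of B cells are carried by the B cell receptor and its coreceptors, among many other proteins.

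The level of a probe set is given on the log2 scale of the deposited values, and a difference is LPS minus control on that scale, so a difference of 1 would be a doubling. SE is its standard error in a limma fit over all probe sets. Adjusted p is that fit's two-sided p after Benjamini-Hochberg adjustment over all 54613 probe sets, with a threshold of 0.05. Each gene is represented by its brightest probe set. Other probe sets are given beside it for the members and for the gene of smallest p in each pathway list. The remaining pathway genes and the cell markers are given by the brightest probe set alone. Levels of different probe sets cannot be compared with each other, and are set only against the array medians, which ran from 6.42 to 6.47.

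By the mean level of 18 probe sets for transcripts added to every hybridisation, the arrays parted into 2 sets. That level was 10.24 ± 0.045 in set A (SD, n = 3) and 10.57 ± 0.051 in set B (SD, n = 3). Set A held LPS 1, LPS 2 and control 1, and set B held LPS 3, control 2 and control 3. Of the B cell markers, 5 were measured, at mean levels from 8.95 for CD22 to 13.02 for MS4A1, and the 4 germinal centre markers lay between 8.19 and 11.12. The germinal centre markers stood lower in LPS cells by differences of -0.56 to -0.31, of which that of MYBL1 passed the threshold. Of all genes, 0.389% passed in either direction. With array set as a block, 3 of the 4 passed as lower, where 2.02% of all genes passed that fit in either direction. The B cell markers had a median difference of -0.18, with 4 below 0 and PAX5 above. CD79A was at -0.38 without overlap between groups (adjusted p = 0.133, and 0.0103 with array set as a block). CD22, CD79B and MS4A1 were at -0.20, -0.18 and -0.07, and at -0.24, -0.09 and 0.0003 with array set as a block. PAX5 was at 0.31 (adjusted p = 0.648), and at 0.18 with array set as a block, with a difference of -0.40 between set B and set A (adjusted p = 0.0140). The part of these markers in the members' differences was not tested. Of the 18 markers of monocytes, T and NK cells, fibroblasts, epithelium, erythroid cells and platelets, COL1A1 was the highest at 7.99 and the others did not exceed 6.69. These markers of other cells had adjusted p of at least 0.682 between LPS and control.

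MAN1A1 was the member that rose, by both of its probe sets. For the brighter, the values were 10.47, 10.77 and 10.65 in LPS cells, against 9.93, 9.70 and 9.92 in control cells. The lowest LPS value lay above the highest control value, and the means were 10.63 ± 0.15 in LPS and 9.85 ± 0.13 in control cells (SD, n = 3 each). The difference was 0.78 (SE 0.10, 95% interval 0.56 to 1.01), a level 1.72-fold higher after LPS. The dimmer probe set read 9.08, 9.28 and 8.72 in LPS cells, against 8.47, 8.06 and 8.25 in control cells. Here too the groups did not overlap, and the difference was 0.76 (SE 0.13), or 1.70-fold.

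The array sets did not touch the MAN1A1 probe sets alike. By the brighter, set B minus set A was -0.04 (adjusted p = 0.899), and the LPS difference came to 0.69 among set A arrays and 0.84 among set B arrays. By the dimmer, set B lay below set A by a difference of -0.39 (adjusted p = 0.00536), and the LPS difference came to 0.71 among set A arrays and 0.56 among set B arrays. The lowest LPS value of this probe set belongs to LPS 3, the only LPS array of set B, and the highest control value to control 1, the only control of set A. With array set as a block in the fit, the LPS difference was 0.77 by the brighter and 0.63 by the dimmer probe set. Leaving out control 3 or LPS 2 ended the call of MAN1A1, with differences of 0.82 and 0.71 by the brighter probe set. In the other 4 fits that left out 1 array it stayed past the threshold, at 0.71 to 0.86. All these fits reuse the values that chose MAN1A1, so they show its dependence on single arrays and are no separate evidence.

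**Figure D1:**
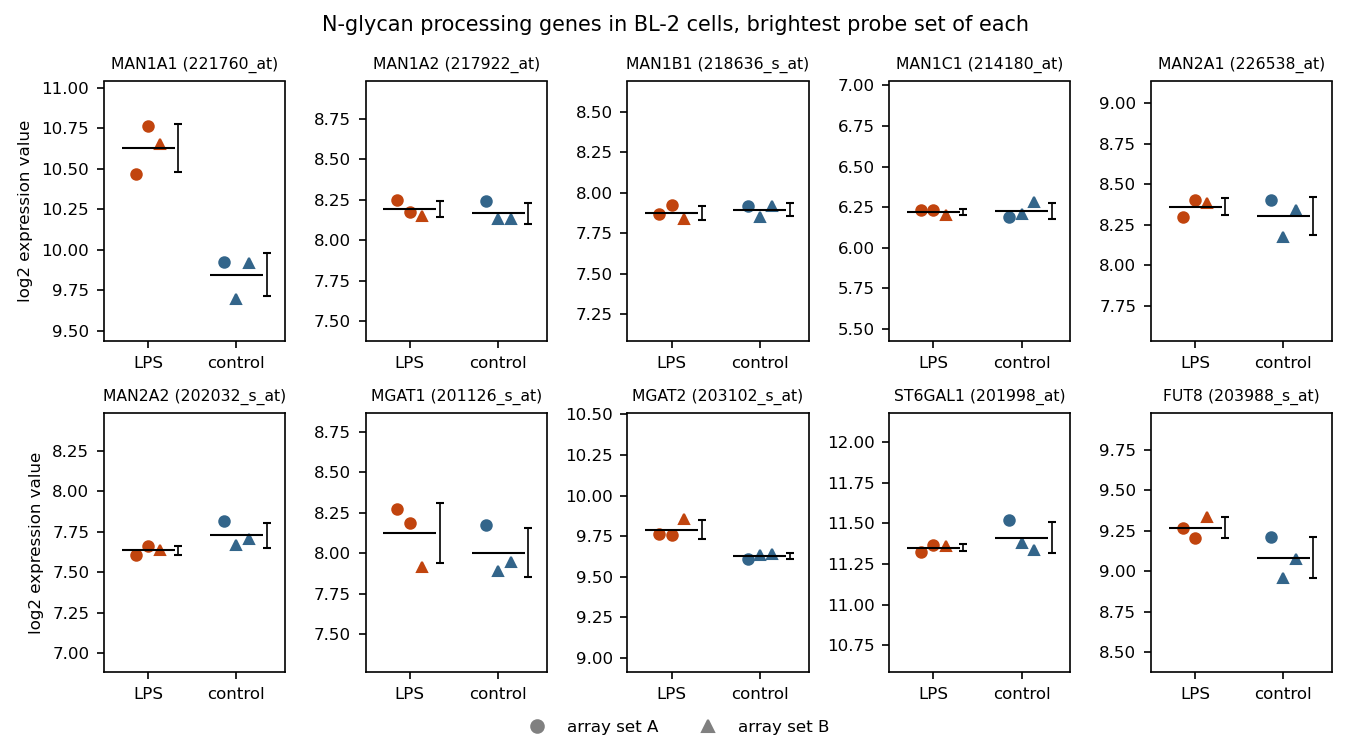
Log2 expression value (vertical axis) of the brightest probe set of each member in every array, LPS left and control right, with circles for array set A and triangles for set B; lines are group means, error bars SD, n = 3 each, and every panel spans the same height. MAN1A1 shows LPS values of 10.47 to 10.77 above control values of 9.70 to 9.93, and the MGAT1 panel shows the circles of both groups above the triangles.

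A promoter sequence of MAN1A1 is shown because this is the member that rose. It is the 250 bases upstream of the start site that the RefSeq promoter table of assembly GRCh38.p14 uses, chr6:119349762-119350011, minus strand, written 5′ to 3′. The RefSeq gene record of MAN1A1 reaches further upstream, so the window lies inside the gene's annotated span. Of the 10 members 9 have an entry in that table. Capitals mark matches to the GC box (GGGCGG) and the CCAAT box (CCAAT), each searched on both strands.
MAN1A1: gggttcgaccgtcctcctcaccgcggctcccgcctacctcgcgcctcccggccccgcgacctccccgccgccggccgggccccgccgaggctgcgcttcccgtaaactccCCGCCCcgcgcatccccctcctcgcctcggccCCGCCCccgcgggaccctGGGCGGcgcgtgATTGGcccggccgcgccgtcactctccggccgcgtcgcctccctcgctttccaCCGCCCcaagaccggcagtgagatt

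The window is 78.4% G and C. It holds 4 GC boxes, a motif found in 42.6% of the 35116 windows of the same length in the table, and 1 CCAAT box, found in 32.0%. No match was found to the NF-kB consensus, present in 5.21% of windows, to the interferon-stimulated response element (3.02%), to the GAS element bound by STAT proteins (TTCNNNGAA, 6.57%), to the cyclic AMP response element (TGACGTCA, 1.65%) or to the TATA box (TATAAA, 10.7%). None of the motifs searched overlapped another in this window. These are descriptions of the letters in this window.

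Counted over the family, 1 of 10 genes passed the threshold, where 0.389% of all genes did, and 2 of 26 probe sets passed as higher, both of MAN1A1, where 0.130% of all probe sets did. Since MAN1A1 chose the family, nothing is read from these counts. Among the other 9 genes, with 24 probe sets, 0 passed, and 1 probe set, of MAN2A1, had an unadjusted p under 0.05, as did 8.08% of all probe sets. The median difference of these 9 was 0.02, against 0.002 over all 19775 genes. The 95% intervals of their brightest probe sets together ran from -0.26 to 0.38, the highest bound being 1.30-fold upward. Over all 24 probe sets the highest bound was 0.56, or 1.48-fold, by the dimmest probe set of MAN2A1.

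Of the class I mannosidases beside MAN1A1, MAN1A2, the Golgi enzyme most closely related to it, had values of 8.25, 8.18 and 8.15 in LPS cells, against 8.24, 8.13 and 8.13 in control cells. The groups overlapped, with a difference of 0.02 (SE 0.075, 95% interval -0.14 to 0.19, adjusted p = 0.969). The 5 dimmer MAN1A2 probe sets lay at -0.06 to 0.11, with adjusted p of at least 0.716. No contrast of MAN1A2 with MAN1A1 was tested, because MAN1A1 was chosen for its difference.

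MAN1B1, which trims mannose early and takes part in the disposal of misfolded glycoproteins, read 7.87, 7.93 and 7.84 in LPS cells, against 7.92, 7.85 and 7.92 in control cells. Its difference was -0.02 (SE 0.071, adjusted p = 0.977), and its other probe set gave 0.02. MAN1C1, the remaining Golgi enzyme of the class, was near the low end of the scale, at 6.23, 6.23 and 6.20 in LPS cells, against 6.19, 6.21 and 6.28 in control cells. Both MAN1C1 probe sets had mean levels below every array median, so a difference there may be compressed. They gave -0.01 (SE 0.052, adjusted p = 0.989) and -0.03 (adjusted p = 0.925). In all, 5 of the 26 member probe sets lay below every array median: both of MAN1C1, 2 of MAN1A2 and 1 of ST6GAL1.

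The Golgi mannosidases of class II remove mannose after MGAT1 has acted. MAN2A1 was measured at 8.30, 8.40 and 8.38 in LPS cells, against 8.40, 8.18 and 8.34 in control cells, with a difference of 0.06 (SE 0.083, adjusted p = 0.924). Its probe set of middle brightness gave 0.16 (adjusted p = 0.656) with all LPS values above all control values. Its dimmest gave the largest value among the 24 probe sets beside MAN1A1, 0.31 (SE 0.12, unadjusted p = 0.0230, adjusted p = 0.514). The values behind it were 8.11, 7.96 and 7.71 in LPS cells, against 7.90, 7.44 and 7.52 in control cells. This probe set was lower in array set B by a difference of -0.37 (adjusted p = 0.00304), and with array set as a block its LPS difference was 0.18 (adjusted p = 0.367).

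MAN2A2, the second enzyme of that class, read 7.61, 7.67 and 7.64 in LPS cells, against 7.82, 7.67 and 7.71 in control cells. All LPS values lay below all control values, the closest pair by less than 0.01, and the difference of -0.09 did not pass (SE 0.071, adjusted p = 0.813). Its dimmer probe set pointed the other way, at 0.11 (adjusted p = 0.720), also without overlap. The direction of MAN2A2 therefore depends on the probe set, and the mean over both was 0.01 (adjusted p = 0.984).

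Of the transferases, MGAT1 has 1 probe set, which read 8.28, 8.19 and 7.92 in LPS cells, against 8.18, 7.89 and 7.95 in control cells. The high values are those of the 3 arrays of set A, 2 from LPS and 1 from control cells. Set B lay below set A by a difference of -0.28 (adjusted p = 0.0233), while LPS minus control was 0.12 (SE 0.10, adjusted p = 0.834) and 0.03 with array set as a block. MGAT1 was the single brightest probe set of a member that passed the threshold between array sets, where 2.96% of all genes were lower in set B.

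MGAT2 stood at 9.76, 9.75 and 9.86 in LPS cells, against 9.61, 9.63 and 9.64 in control cells. All LPS values lay above all control values, with means of 9.79 ± 0.056 in LPS and 9.63 ± 0.017 in control cells (SD, n = 3 each). The difference of 0.16 did not pass the threshold (SE 0.084, adjusted p = 0.669), nor with array set as a block (0.18, adjusted p = 0.354). Its dimmer probe sets gave 0.09 and 0.14, with overlapping groups, and -3.8e-05 and 0.08 with array set as a block. Over the brightest probe sets of all members, 3 of 10 genes had groups that did not overlap, where 15.7% of all genes did. They were MAN1A1 and MGAT2 with LPS higher and MAN2A2 with LPS lower. MAN1A1 chose the family, and the dimmer MAN2A2 probe set was separated the other way, so nothing is read from this count.

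FUT8 was at 9.26, 9.21 and 9.34 in LPS cells, against 9.21, 8.96 and 9.08 in control cells. LPS 2 lay below control 1, and the difference was 0.19 (SE 0.090, 95% interval -0.01 to 0.38, adjusted p = 0.642). Within set A it was 0.02, against 0.32 within set B. The other FUT8 probe set gave 0.14 (adjusted p = 0.766).

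ST6GAL1 had a high level by its brightest probe set, at 11.32, 11.37 and 11.36 in LPS cells, against 11.52, 11.38 and 11.34 in control cells. The difference was -0.06 (SE 0.092, 95% interval -0.26 to 0.14, adjusted p = 0.925). Its second probe set by brightness followed the array sets, with 9.32, 9.24 and 8.87 in LPS cells, against 9.33, 8.95 and 8.87 in control cells. Set B was below set A by a difference of -0.42 (adjusted p = 0.00112), and LPS minus control was 0.09 (adjusted p = 0.921) overall and -0.05 with array set as a block. The dimmest ST6GAL1 probe set, below every array median, gave -0.07 (adjusted p = 0.857), with 0.09 within set A and -0.20 within set B. CD22, the receptor that binds the product of ST6GAL1, was at 8.85 ± 0.024 in LPS cells and 9.05 ± 0.10 in control cells (SD, n = 3 each), a difference of -0.20 (adjusted p = 0.554). All LPS values of CD22 lay below all its control values.

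**Figure D2:**
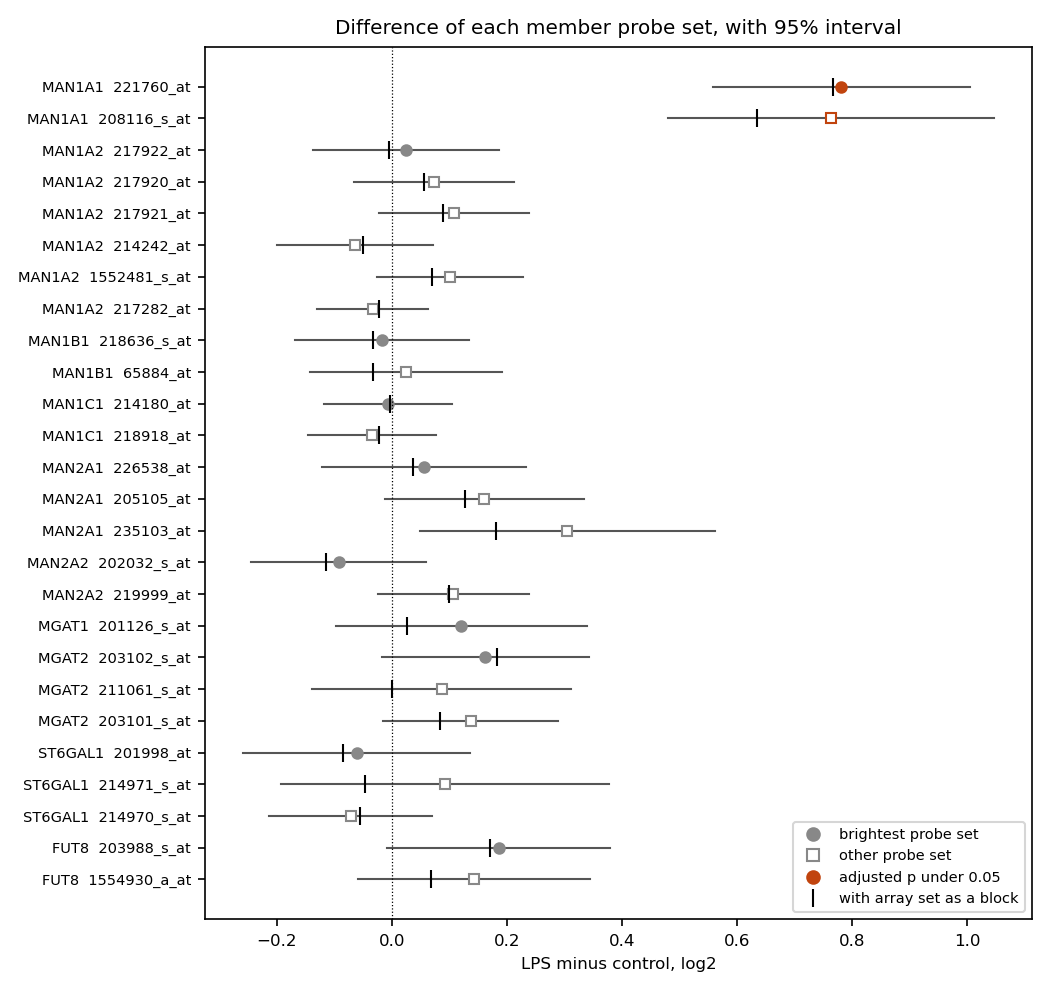
LPS minus control on the log2 scale (horizontal axis) for all 26 member probe sets, with 95% intervals; filled circles are each gene's brightest probe set, open squares the others, red marks an adjusted p under 0.05 and black ticks the value with array set as a block. The MAN1A1 probe sets lie at 0.78 and 0.76, and the other 24 between -0.09 and 0.31.

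Probe sets of 1 gene did not always move alike between the array sets. Of the 26 member probe sets 4 were lower in set B past the threshold: the dimmer of MAN1A1, the dimmest of MAN2A1, that of MGAT1 and the second of ST6GAL1. That is 15.4% of them, against 3.32% of all probe sets. That background was not matched by level, so nothing is read from this count. In MAN1A1, MAN2A1 and ST6GAL1 the brightest probe set did not pass, with set differences of -0.04, -0.06 and -0.07. The sets were found from the arrays' own hybridisation controls and are not groups of the study, and what made them differ was not tested.

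**Figure D3:**
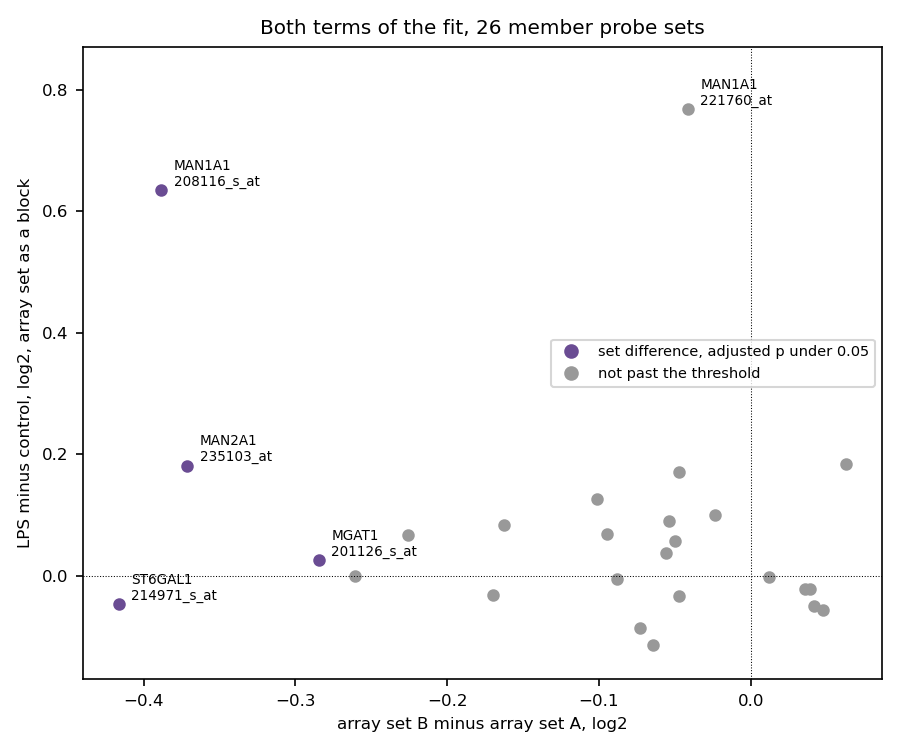
Each point is 1 of the 26 member probe sets, with the difference between array sets (set B minus set A, log2) on the horizontal axis and LPS minus control with array set as a block (log2) on the vertical axis; purple marks a set difference with an adjusted p under 0.05. The MAN1A1 probe sets share a high LPS difference, 0.77 and 0.63, and part along the horizontal axis, at -0.04 and -0.39.

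The rest of the N-glycan pathway was described by 8 lists of genes that are no members, with 88 of 93 listed genes measured. Some listed genes, such as ST3GAL5, have products other than N-glycans. Of these 88 genes, 0 passed the threshold in either direction by the limma fit, and 12 had an unadjusted p under 0.05, 7 higher and 5 lower. That is 13.6% of them, where 9.56% of all genes had such a p. The median difference was 0.05, with 60 genes above 0 and 28 below, against a median of 0.002 and 50.8% above 0 over all genes. That background was not matched by level, and probe sets above the median level had a median difference of 0.014. The pathway genes had a median of 0.02 among set A arrays and 0.06 among set B arrays. In the fit blocked on array set their median was 0.03 and 1 gene passed, ST3GAL5, where 2.02% of all genes passed that fit.

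Assembly and transfer of the precursor held 20 measured genes, from -0.20 for OST4, a small subunit of the oligosaccharyltransferase, to 0.20 for ALG5, which makes the glucose donor of the precursor. Their median was 0.09, with -0.02 among set A arrays and 0.09 among set B arrays. OST4 was at -0.11 with array set as a block, at -0.28 among set A arrays and at 0.05 among set B arrays. For ALG5 these values were 0.20, -0.0055 and 0.40. DPAGT1, which starts the precursor, had the smallest p of the list at -0.14 (SE 0.067, adjusted p = 0.640). In the endoplasmic reticulum, where glucose and mannose are trimmed and folding is checked, 13 genes had a median of 0.07. EDEM1, a mannosidase-like protein of glycoprotein disposal, read 9.75, 9.66 and 9.73 in LPS cells, against 9.91, 9.95 and 9.95 in control cells. All its LPS values lay below the controls, and the difference was -0.23 (SE 0.084, adjusted p = 0.476). The chaperone calreticulin, encoded by CALR, was at 0.29 (adjusted p = 0.571), and at 0.18 with array set as a block (adjusted p = 0.412). Its level was lower in set B by a difference of -0.34 (adjusted p = 0.0126), and the LPS difference came to 0.09 among set A arrays and 0.28 among those of set B.

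Among the 6 enzymes of further branching, MGAT5, which opens the arm that carries long lactosamine chains, stood at 8.78, 8.79 and 8.86 in LPS cells, against 8.97, 9.05 and 9.19 in control cells. It had no overlap between groups and a difference of -0.26 (SE 0.086, adjusted p = 0.381), and its dim second probe set gave -0.07. MGAT4B, which opens another arm, was at 0.23 (adjusted p = 0.389), so the branching enzymes lay on both sides of 0.

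The 8 genes of galactose and lactosamine addition had the highest median of the pathway lists, 0.14, with 7 above 0, and 0.19 within set A and 0.12 within set B. B4GALT2, a galactosyltransferase, had values of 7.59, 7.55 and 7.42 in LPS cells, against 7.32, 7.18 and 7.19 in control cells. It did not pass, at 0.29 (SE 0.072, adjusted p = 0.162). B4GALT6, which makes the glycolipid lactosylceramide, was at 0.27 (adjusted p = 0.264), and B3GNT2, which extends lactosamine chains, was also at 0.27 (adjusted p = 0.298). The LPS values of B4GALT2, B4GALT6 and B3GNT2 lay above their control values, and each missed the threshold with array set as a block too, at adjusted p of 0.0864, 0.0784 and 0.0913.

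Of the 13 sialylation genes, ST3GAL5 had the largest difference. Its values were 8.04, 8.40 and 8.22 in LPS cells, against 7.87, 7.81 and 7.84 in control cells, without overlap. The difference was 0.38 (SE 0.090, adjusted p = 0.131), and 0.35 within set A and 0.39 within set B. With array set as a block its adjusted p was 0.0236. ST3GAL5 makes the ganglioside GM3, so its known product is a glycolipid and not an N-glycan. ST8SIA4, which makes polysialic acid, was at -0.19 (adjusted p = 0.564), and the other 11 genes lay within that range, with a list median of 0.03.

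The 13 fucosylation genes had a median of -0.02. This list takes in POFUT genes, named for protein O-fucosylation, so it is not confined to N-glycan enzymes. The gene listed as FUT11, which the current annotation names POFUT4, had the smallest p, with values of 7.01, 6.98 and 6.98 in LPS cells, against 6.97, 7.53 and 7.39 in control cells. Its difference of -0.31 (SE 0.11, adjusted p = 0.433) came with 1 control below the LPS values, being 0.02 among arrays of set A and -0.48 among those of set B. Without control 1, the low control, POFUT4 passed the threshold. Its second probe set gave -0.28 (adjusted p = 0.278).

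The 5 genes of lysosomal and cytosolic glycan breakdown had a median of 0.04, led by MAN2B1, the lysosomal alpha-mannosidase, at 0.20 (SE 0.097, adjusted p = 0.643). The 10 measured genes of sugar donors and their transport had a median of 0.001, led by GNPNAT1, an enzyme of the route to UDP-N-acetylglucosamine, at 0.22 (SE 0.096, adjusted p = 0.575).

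**Figure D4:**
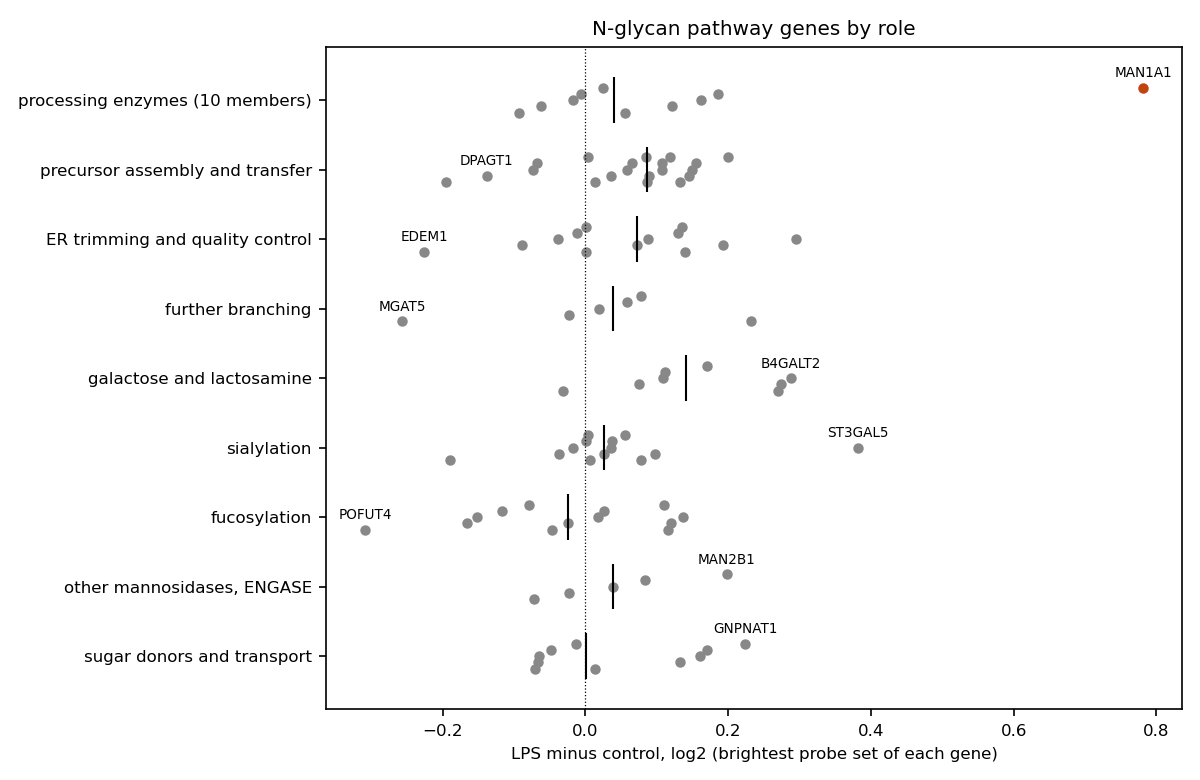
LPS minus control on the log2 scale (horizontal axis) by the brightest probe set of each gene, for the 10 members and the 8 other lists of the N-glycan pathway; red marks an adjusted p under 0.05, vertical lines are list medians and the labelled genes are MAN1A1 and the gene of smallest p in each list. MAN1A1 at 0.78, whose difference chose the family, is the only red point, and the 88 other pathway genes lie between -0.31 and 0.38.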

How the data were processed

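Expression was measured on 6 Affymetrix arrays, 3 LPS and 3 control. Column-purified RNA was labelled with biotin by in vitro transcription, per the labels' protocols. The authors deposited 1 value per probe set and array, taken to be log2 because values lay between 5.46 and 14.81; the sources used here do not give the summary and normalisation. No detection calls were used, and the number of arrays limits the precision.

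After leaving out 62 Affymetrix control probe sets, 54613 were tested in R 4.3.3 with limma 3.58.1: group as the only term, empirical Bayes with an intensity trend, Benjamini-Hochberg adjustment over all probe sets. The fit was also run on simulated data with independent noise and no array sets, which cannot show how it handles the array sets found here. Gene names came from the platform annotation, updated through the RefSeq table of GRCh38.p14; 41037 of 41091 probe sets with 1 symbol matched and 0 changed. For 2 listed genes an older symbol was used. The probe set with the highest mean over all arrays represents a gene. Array sets were parted at the widest gap of the hybridisation controls, 0.22 against 0.081 for the next. The members, lists, tests and alternatives were chosen with earlier results of these data known. Named were all members, and from each pathway list the genes past the threshold or else the gene with the smallest unadjusted p; other genes were named after their values were seen. Alternatives were blocks on replicate number or array set, other normalisations, filters, variance priors, weights and thresholds, and leaving out each array. Protein sequences were not used here.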

Additional observations from a re-analysis of the deposited data

How the results depend on the processing

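Of the 10 member genes 1 passed the threshold, MAN1A1. In every alternative the count stayed at 1 except without control 3 and without LPS 2, which gave 0 (leave-one-out range 0 to 1). Every alternative reuses the values that chose MAN1A1, so this count is a description. The count of member probe sets, 2, fell to 1 with no intensity trend and to 1 without probe sets marked _x_at or _s_at, which leaves out the dimmer of MAN1A1, and ran from 0 to 2 when 1 array was left out. The pathway count of 0 was 1 with array set as a block (ST3GAL5) and 0 to 1 when 1 array was left out (POFUT4 without control 1). Over all probe sets the count of 144 was 734 with array set as a block, 292 with quantile normalisation, 309 with array weights, 82 without the marked probe sets, 265 at a threshold of 0.1, and 10 to 374 when 1 array was left out. The MAN1A1 difference ran from 0.71 to 0.86 over 15 alternatives. Directions turned for 5 other members, for MAN2A2 from -0.09 to 0.11 with its other probe set. MAN1A2 was -0.0049 with array set as a block, -0.0074 with quantile normalisation and -0.0040 (without LPS 1) to 0.062 when 1 array was left out. MAN1B1 was 0.024 without the marked probe sets, 0.0034 as the mean over probe sets and -0.041 to 0.0011 (without LPS 3) when 1 array was left out. Leaving out 1 array gave -0.026 to 0.022 for MAN1C1 (above 0 without control 3 and, at 0.0041, without LPS 3) and -0.0086 (without control 2) to 0.10 for MAN2A1. MAN2A2 was 0.11 without the marked probe sets and 0.0074 as the mean over probe sets. MAN2A1, 0.06 by its brightest probe set, was 0.17 as the mean over probe sets (adjusted p = 0.484). MGAT1, at 0.12, was 0.026 with array set as a block and 0.047 (without LPS 1) to 0.23 (without LPS 3) when 1 array was left out. In these the cause was not tested, apart from the change of probe set that 2 of the alternatives make. MGAT1 and MGAT2 have no probe set without such a mark, and MAN1C1 none above the median level.

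Whether the replicate numbers pair the samples cannot be told from these arrays. Deviations of same-numbered samples correlated at 0.44, -0.04 and 0.23. Control 1 correlated best with LPS 1, and controls 2 and 3 with LPS 3. The samples numbered 1 share array set A and those numbered 3 share set B, while those numbered 2 are split. These correlations therefore cannot separate pairing from array set. With a replicate block the calls were 498 probe sets, 1 member gene, 2 member probe sets and 1 pathway gene (ST3GAL5).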

Other observations

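Non-coding neighbours of the members were measured by 3 probe sets with a single symbol, chosen after the data were seen. MAN1B1-DT, a transcript that starts beside MAN1B1, read 7.66, 7.57 and 7.61 in LPS cells, against 7.67, 7.40 and 7.56 in control cells, a difference of 0.07 (SE 0.079, adjusted p = 0.893). FUT8-AS1, antisense to FUT8, stood near the array medians, with differences of -0.02 and -0.01 by its 2 probe sets (adjusted p of 0.977 and 0.989).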
